A study of Drosophila melanogaster with 4 samples.

Results

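The aristaless gene (al) lies near the distal end of chromosome arm 2L of Drosophila melanogaster, and its region was examined in a list of genomic sites enriched by an antibody against Distal-less (Dll). Members were the peaks of the list whose midpoint fell between positions 340000 and 425000 of 2L (FlyBase release 5), a window of 85 kb around al. These were 21 of 16117 peaks. Of these, 15615 lay on the large arms 2L, 2R, 3L, 3R and X, and 2862 on 2L.

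Dll binding was assayed by chromatin immunoprecipitation and sequencing (ChIP-seq) in whole white prepupae, the brief stage that opens metamorphosis. There were 2 libraries of chromatin precipitated with an affinity-purified polyclonal rabbit serum against Dll, and 2 libraries of input, chromatin from the same strain that was not precipitated. The animals of all 4 libraries were of strain Y cn bw sp, with the alleles y[1] and oc[R3.2], then cn[1], bw[1] and sp[1] with Gr22b[1], Gr22d[1] and CG33964[R4.2], and also lab[R4.2], LysC[1], MstProx[1], GstD5[1] and Rh6[1]. Since whole animals were used, the tissue behind a peak is not given by these data. The outcome is 1 list of peaks with 1 score each, so library depth is not known and no value has an error between replicates. The score is the authors' own, which the list attributes to MACS, a program that calls peaks, with no scale given, and it serves here to rank and describe peaks within the list.

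al encodes a homeodomain protein of the paired class, required for the arista at the tip of the antenna and for the pretarsus, the claw-bearing end of the leg. Dll, another homeodomain protein, is itself needed for the outer parts of leg and antenna. In the leg disc the distal tip is set up by Dll together with Wnt, BMP and EGF receptor signals, and al is among the genes switched on there. Where Dll sits around al at the onset of metamorphosis is the question put to the region.

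Dll peaks were concentrated on and beside al itself. Of the 21 peaks, 6 overlapped the gene, 18 had their midpoint between its protein-coding neighbours Ent1 and CG4213, and 3 lay in the remainder of the window. The highest peak of the region, with a score of 176.42, sat across the low-coordinate end of al. The median width of the peaks, 763 bp, was above that of 97.9% of other 85 kb windows, and their median score, 28.54, above that of 85.1%. Both positions depended on the weaker peaks of the list: among its highest 25% of peaks by score they were 52.7% and 19.4%. Those last medians rest on only 7 peaks of the region.

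**Figure D1:**
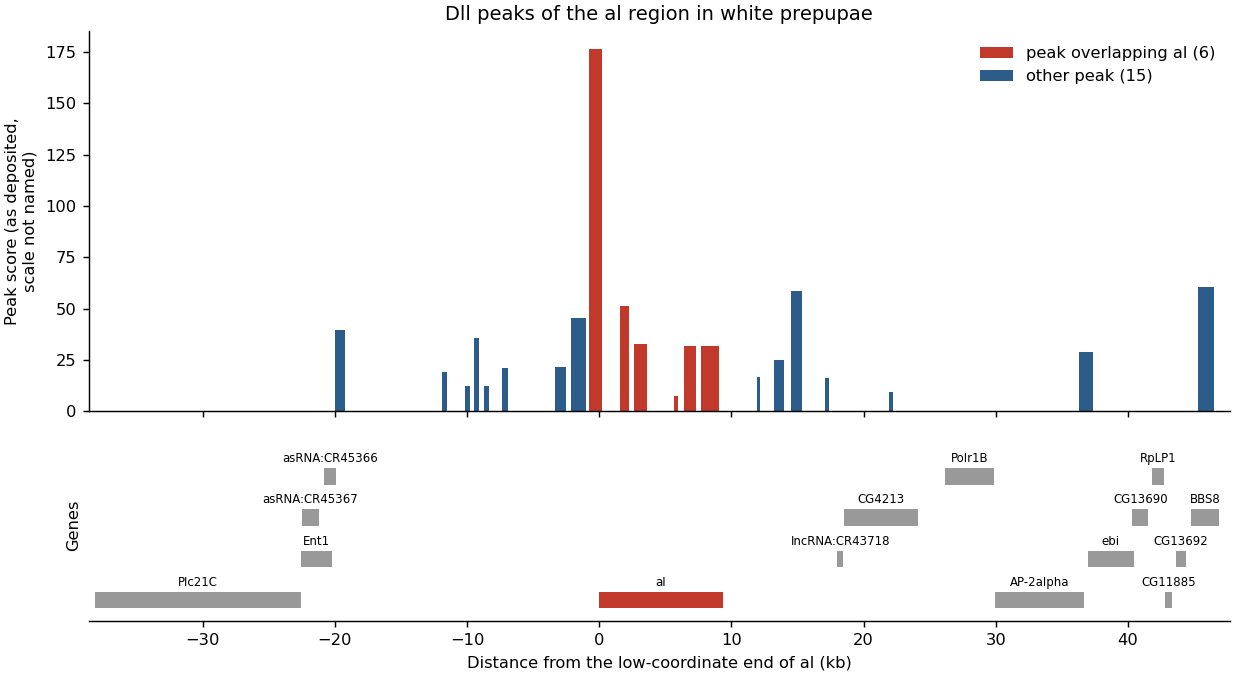
Score of each of the 21 Dll peaks (vertical axis, as deposited) against distance in kb from the low-coordinate end of al, with bar widths to scale and the annotated genes beneath. The 6 peaks that overlap al are red, and the highest of them (176.42) stands at 0 kb, while the stretch over Plc21C on the left holds no bar.

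Gene positions came from a RefSeq gene table of release 6, whose numbering on this part of 2L the rule for the region gives as the same as in release 5. The shared numbering rests on that rule. The 3 highest peaks of 2L, with scores of 939.07, 820.91 and 743.91, overlapped noc, drm and sob. At 0 shift, peaks of the top 10% covered 80 of 5231 ends of protein-coding genes of 2L, and with the genes moved by 500 to 5000 bp to either side they covered 38 to 73. Over all peaks the order was the opposite, with 309 ends covered at 0 shift and 313 to 417 at the other shifts, so the shifts alone do not settle the numbering. The table gives no strand, so gene ends are called low or high by coordinate, and which end of al is its transcription start is not stated here.

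The highest peak spanned 377352 to 378347, a width of 996 bp. It began 760 bp before the low end of al and reached 236 bp into the gene. Its score was 2.92 times the second score of the region, and 96.6% of the peaks of the list scored lower. Across the list it ranked 545, so this was a high peak but not one of the extremes. For its score it was not wide, since 40.4% of the 188 peaks of the large arms with a score within 10% of it were narrower.

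Peaks were dense over the gene, in 3 groups separated by gaps of 1339 and 2042 bp. From 374771 to 387146, 8 peaks covered 57.9% of 12.4 kb. These 8 held 49.0% of all the bases in peaks of the region. Their median width was 930 bp and their median score 32.23, against 413 bp and 20.88 in the other 13 peaks. The run was picked out after its values were seen.

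Of this run, 2 peaks lay before the highest one, outside al. The nearer, from 375952 to 377113, scored 45.26 over 1162 bp and was separated from the highest peak by 238 bp, the shortest gap of the region. The farther, from 374771 to 375579, scored 21.42 over 809 bp. Both were wider than most peaks of like score, with 84.0% and 85.5% of those being narrower.

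Inside al, 5 more peaks followed. At 379687 to 380328 a peak of 642 bp scored 51.11, the fourth score of the region. The peak at 380759 to 381733 scored 32.57 over 975 bp. These lay on the side of the gene next to the highest peak. The other 3 lay toward the opposite end, starting with the weakest peak of the region, which measured 330 bp from 383776 to 384105 and scored 7.53. Only 1.28% of the list scored lower than this one. After it came a peak scoring 31.67 at 384543 to 385427, of 885 bp. The widest peak of the region, from 385776 to 387146, measured 1371 bp and scored 31.89. It ended 293 bp short of the high end of al, and 92.7% of peaks of like score were narrower.

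Together the 6 peaks on al covered 47.6% of its 9.33 kb. Among 2655 protein-coding genes of 2L, 34.1% were overlapped by at least 1 peak and 3.88% by 6 or more. Most genes with as many peaks were far longer than al, with a median length of 37.4 kb for the other 102. Of these, 3 were no longer than al, each with 6 peaks: Ets21C, a transcription factor of the ETS family, tio, a zinc finger gene of the teashirt family, and Col4a1, a collagen chain of basement membranes. These 3 were named after their values were seen. A peak as high as the one on al, or higher, overlapped 65 of the other 2654 genes, and 98 had an equal or larger share of their length in peaks.

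On the low-coordinate side, 20.2 kb separate al from Ent1, which encodes a nucleoside transporter. Besides the run at the gene, 6 peaks lay there. A group of 3 stood 8.35 to 9.75 kb from al, within 1810 bp, with scores of 12.23, 35.6 and 12.24. The middle one, at 368671 to 369020, was narrow for its score: it measured 350 bp, and 7.15% of peaks of like score were narrower. Single peaks flanked this group at 366197 to 366569 (score 19.11) and at 370783 to 371241 (20.88). The outermost, at 358092 to 358854, scored 39.54 and covered the high end of asRNA:CR45366, an antisense RNA at Ent1.

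On the high-coordinate side, 9.16 kb separate al from CG4213. The third score of the region, 58.65, belonged to a peak of 860 bp at 392587 to 393446, which lay 5.15 kb from al and overlapped no annotated gene. Next to it, 505 bp away, a peak at 391309 to 392081 scored 24.73 over 773 bp. A narrow peak flanked this pair on each side. The one nearer to al, from 390017 to 390278, scored 16.39 and with 262 bp was the narrowest of the region. The other, from 395199 to 395482, scored 16.09 over 284 bp.

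Beyond its neighbours the window held fewer peaks, with no midpoint on the low side. Between Ent1 and CG4213, 38.7 kb held 4.65 peaks per 10 kb. The outer flanks, 46.3 kb in all, held 0.648 per 10 kb, and the high flank alone 1.06. No peak midpoint lay in the 17.9 kb from the start of the window through Ent1, a stretch filled mostly by Plc21C, a phospholipase C gene. On the other side, 28.4 kb with 9 protein-coding genes held 3 peaks. One scored 9.06 within CG4213. Another, at 414387 to 415470 (score 28.54, 1084 bp), covered both the high end of AP-2alpha, a subunit of the clathrin adaptor, and the low end of ebi, a WD-repeat protein that acts in EGF receptor and Notch signalling. The third lay within BBS8, a gene of the ciliary BBS complex, at 423428 to 424609, and its score of 60.52 over 1182 bp was the second of the region. No peak overlapped Polr1B (a subunit of RNA polymerase I), RpLP1 (a protein of the ribosomal stalk), CG13690, CG11885, CG13692, Ent1 itself or the noncoding genes asRNA:CR45367 and lncRNA:CR43718. The 4 peaks on Plc21C, with scores of up to 107.69, had their midpoints outside the window.

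Of 28 gene ends in the region, 4 (14.3%, exact 95% interval 4.03 to 32.7) lay in a peak, against 6.24% over 2L. With so few ends the interval spans the value of the arm. The 4 were the low ends of al and ebi and the high ends of AP-2alpha and asRNA:CR45366, and the ends at AP-2alpha and ebi shared 1 peak. With ends counted within 500 bp of a peak, the shares were 21.4% in the region and 20.5% over 2L.

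The rule for members rests on position alone. The peaks nearest inside its edges were those at 358092 and 423428 described above. Just outside lay a peak at 336295 to 336938 (score 13.83, 644 bp) and one at 426918 to 428398 (52.83, 1481 bp).

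Set against the other 1394 windows of 85 kb on the large arms, the al region was above the middle in number and high in width. Its 21 peaks exceeded the number in 86.7% of them (exact 95% interval over windows 84.8 to 88.4), whose median was 10 and highest value 46. Of all 1395 windows, 13.4% held 21 or more. Peaks filled 17.2% of the region, more than in 90.8% of other windows, whose median was 6.07%. The median width of 763 bp (interquartile range 373 to 975 bp) exceeded that of 97.9% of the 1303 other windows with a peak (97.0 to 98.6), where the median was 421 bp. Among the highest 50% and 25% of peaks, of which the region held 15 and 7, this position was 81.9% and 52.7%. On 2L alone, 2 of 246 windows had a larger median width.

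The median score was 28.54 (interquartile range 16.39 to 39.54), above that of 85.1% of other windows (83.1 to 87.0), and the peaks of the large arms had a median of 16.97. The direction turned with a stricter list, where the median score of the region stood above 39.3% of other windows among the highest 50% of peaks and above 19.4% among the highest 25%. Of the 21 peaks, 15 (71.4%, no interval computed) were in the upper 50% of the list, against 49.4% of peaks of the large arms. In the top 25% were 7 (33.3%, exact 95% interval 14.6 to 57.0), against 24.7%, which the interval includes. In the top 10%, 1 peak (4.76%, exact 95% interval 0.120 to 23.8) stood against 10.1%, a share that its interval includes. The highest score of the region, 176.42, exceeded the highest of 70.4% of the other windows. These are positions in a distribution of windows, and no test of chance was made. Neighbouring peaks need not be independent, so the intervals may be too narrow.

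**Figure D2:**
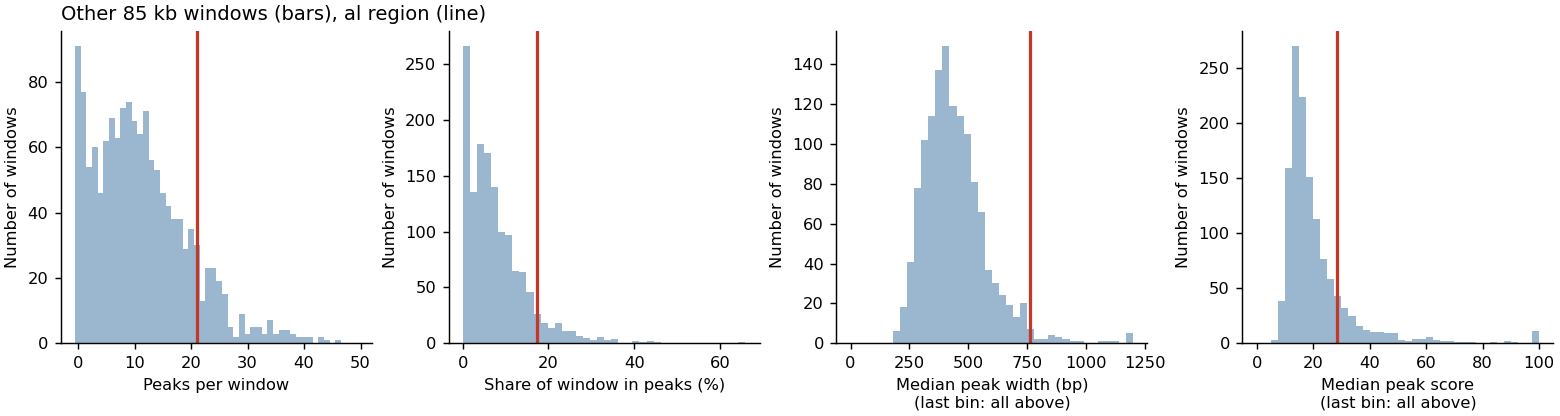
Distribution over the other 85 kb windows of the large arms (bars, number of windows) of peak number, share of the window in peaks, median peak width and median peak score, with the al region as a red line at 21 peaks, 17.2%, 763 bp and a score of 28.54. The line stands furthest into the tail for median width.

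Other windows with a like number of peaks mostly had narrower and lower ones. Among 130 other windows with 19 to 23 peaks, 128 had a smaller median width and 118 a smaller median score. Their typical window had a median width of 440 bp and a median score of 16.16. The al region had fewer peaks in the top 10% than most of them, 1 against a median of 2. This set of windows was chosen after the data were seen.

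Width rose with score in the region as in the whole list. The Spearman correlation over the 21 peaks was 0.707 (Pearson, log10 values, 0.705), and over the peaks of the large arms it was 0.721. These correlations run across peaks of 1 list, which share their libraries. At like score the members were less far above other peaks in width. Against peaks of the large arms with a score within 10% of their own, 14 of 21 members were wider than the median. By the definition of a median, about as many peaks are wider as narrower, and no interval was computed for the 14. Over all 21 members the median ratio of width to that median was 1.18, and the ratio ran from 0.584 to 2.36. When each peak was divided by the median width of its class among 100 classes of score, the median ratio of the region was 1.16. That exceeded 81.5% of other windows, a lower position than the 97.9% for width itself. Among the 130 other windows with 19 to 23 peaks, the ratio of the region exceeded 105 (80.8%), against 128 for width itself.

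**Figure D3:**
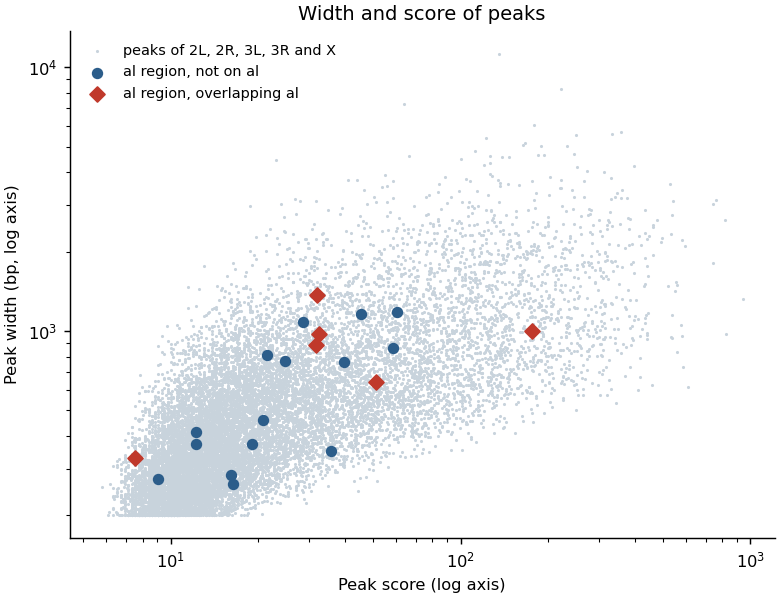
Width in bp against score, both on log axes, for every peak of the large arms (grey) and for the 21 peaks of the al region (blue, or red diamonds for the 6 that overlap al). Members span the score range from 7.53 to 60.52, with a single one beyond it at 176.42, and 14 of the 21 are wider than the median peak of like score.

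Gaps between peaks of the region were shorter at the median than those of the large arms. The median of the 20 gaps was 1185 bp, against 2180 bp there, and 8 gaps (40.0%) were 1000 bp or shorter, near the 33.5% of the large arms. A window with many peaks has short gaps, and gaps were not compared with those of windows with a like number of peaks. The longest gap, 14080 bp, ran from CG4213 across Polr1B to the high end of AP-2alpha. Joining peaks across gaps of up to 1000 bp left 13 groups. The longest of these measured 3577 bp and contained the highest peak with the 2 before it. Groups of 3 were the largest in the region, and 10.9% of the groups on the large arms had as many peaks or more.

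Along the chromosome, the al region was the first dense window from the distal end of 2L. The 4 windows before it held 6 to 9 peaks each. The next one, which contains ex, a gene of the Hippo growth pathway, also held 21, and the 2 after that held 32 and 31. Highest scores did not follow peak number. The highest score of the ex window, 537.05, belonged to a peak on ush, which extends into that window, and the highest on ex was 193.78. The windows with 32 and 31 peaks had highest scores of 188.98 and 166.01, near the 176.42 of the al region. No other window up to 12 beyond the al region had a median width as large as 763 bp, and the nearest value was 696 bp.

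**Figure D4:**
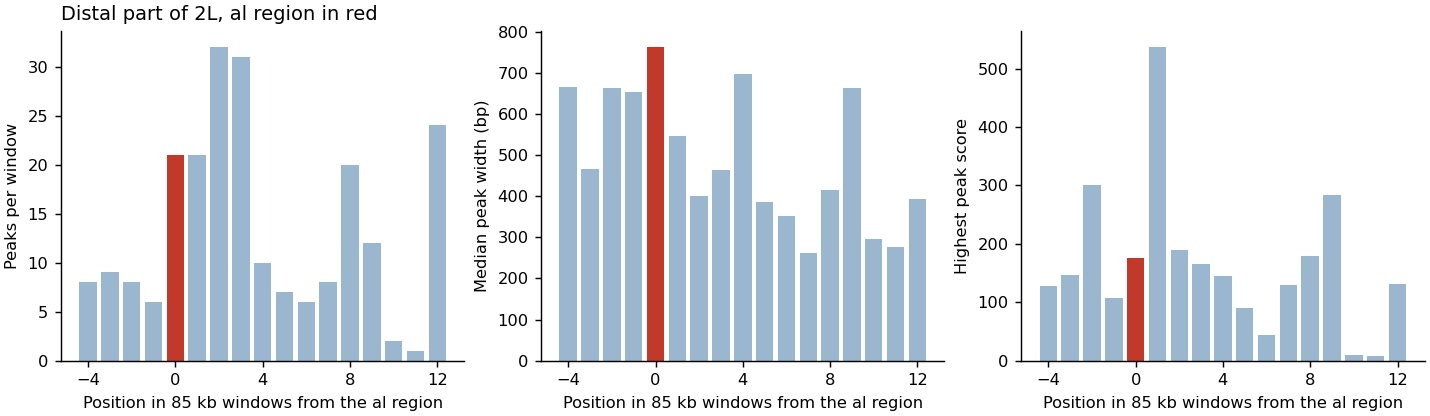
Peak number, median peak width in bp and highest peak score in consecutive 85 kb windows from the distal end of 2L, counted from the al region (red, 0). The al region has 21 peaks where the 4 windows before it have 6 to 9, and its median width of 763 bp is the highest of the 17 windows shown.

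To set al beside other genes of limb patterning and growth, peaks were counted in 85 kb around the middle of 24 genes of 2L. Their counts are a description with no test. The count at al, 21, shared rank 11 with dac, the gene for the medial leg. The most peaks lay around sob (36) and drm (31), zinc finger genes of the leg joints that share part of their windows, and around ds (28), an atypical cadherin of the Hippo pathway. Next above al stood nub, a POU factor of wing and leg, with 24, and next below salr, a Spalt zinc finger gene, with 20. The fewest lay around Mad (5) and tkv (11), a transducer and a receptor of BMP signals, and ft (12), a cadherin and binding partner of ds. Of the 24 genes, 23 had more peaks than the median window of the large arms, whose windows were not centred on genes. The same share over all genes of 2L was not counted, so this is not a result about limb genes.

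By group, the joint genes drm, sob and odd had 26 to 36 peaks, the Wnt and BMP genes wg, dpp, tkv and Mad had 5 to 27, and the growth genes ex, ds and ft had 12 to 28. For the Spalt and zinc finger genes salm, salr, noc and elB the range was 13 to 27. The remaining genes, nub, pdm2, esg, ush, bib, cad, crol and aop, had 13 to 27. Thus al fell inside the range of each of these groups except the joint genes, which were all higher. The joint genes drm, sob and odd lie 3152, 3191 and 3217 kb from al, so their 85 kb windows overlap. Their counts share peaks and are not separate values.

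The order changed with the distance counted and with the measure. Within 10 kb of the middle of the gene, al had 10 peaks, as many as dac, ex and odd and fewer than wg (11), where the median of the other 23 genes was 6. Within 25 kb it had 19, tied for rank 3 with dpp after sob (22) and wg (21). By bases covered by peaks in the 85 kb, al ranked 13. The median width around al was the largest of the 24, with 763 bp against 688.5 bp for odd and 660 bp for sob, and its median score ranked 3. Its highest score ranked 17, against 939.07 around noc, 820.91 around drm and sob, and a median of 265.18 over the 24. Pph13, another homeodomain gene, lies 190 kb from al, and its 2.06 kb were overlapped by 1 peak. Within 10 kb of its middle it had 7 peaks, and within 25 kb it had 11.

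**Figure D5:**
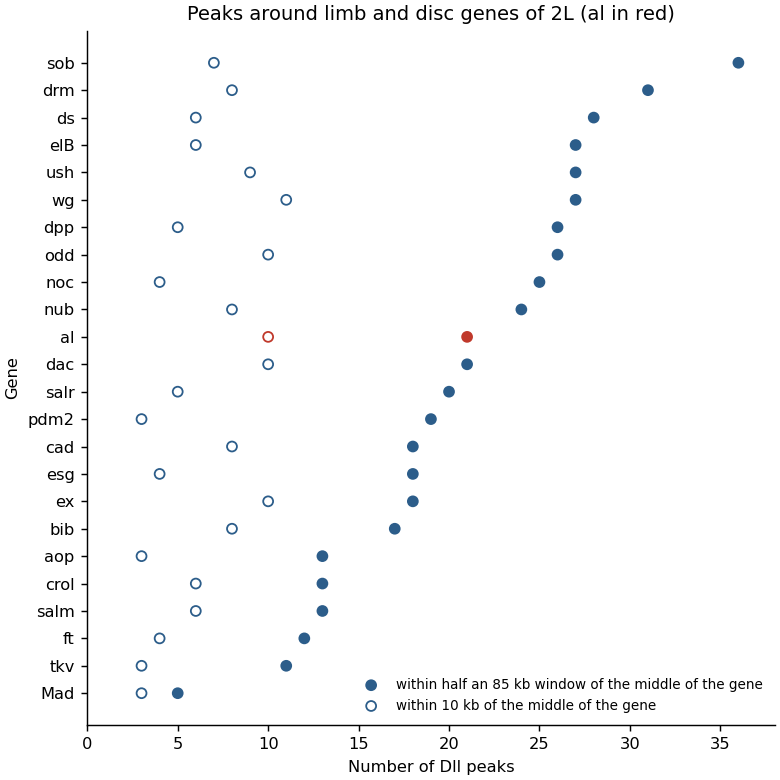
Number of Dll peaks with midpoint within 42.5 kb (filled) or within 10 kb (open) of the middle of each of 24 limb and disc genes of 2L, with al in red. Sorted by the wide count, al stands at 21 peaks in the middle of the list, while its 10 peaks within 10 kb are exceeded by wg alone.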

How the data were processed

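The data were 1 list of peaks for the series, made from 2 Dll ChIP and 2 input libraries of white prepupae. Per the submitters' processing notes, the tools were MACS2, BWA and CASAVA (1.7.0.2 and 1.7.0.3) and the build was BDGP5. Per the file headers, the list is on FlyBase release 5. The score of each peak was deposited by the authors without a scale, and the sources used here give neither the calling threshold nor whether replicates were pooled. A list cut at a threshold holds no weaker sites, and its peak number depends on depth, which is unknown.

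Peak width counts both end positions. Windows of 85 kb were laid from position 0 of each large arm up to its last peak, and a peak belonged to the window of its midpoint. A percentile is the percent of other windows with a lower value, with an exact Clopper-Pearson interval over windows, which covers counting error only. Medians used windows with at least 1 peak. A peak overlapped a gene from 1 bp on. Genes were taken from the RefSeq table of release 6, with 3506 genes on 2L, and since it has no strand or sequence, both ends of a gene stood in for its start, the middle of a gene replaced the start for the counts around limb genes, and no motif or promoter was analysed. Stat92E was left out, as it is not on 2L. Named were all genes overlapping the region, peaks on al or within 10 kb of it, the 10 highest and 5 widest peaks, and limb genes by rank. The members and lists were chosen with earlier results of these data known. The window code was tested on simulated lists. Python 3.11.15, pandas 2.3.3 and scipy 1.17.1 were used.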

Additional observations from a re-analysis of the deposited data

How the results depend on the processing

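No paired analysis was possible because the list holds no values per library, and for the same reason no replicate could be left out. Of 61 alternatives for 8 values, 22 stayed within the interval of the reported value, and the cause of the other moves was not tested unless stated. For peak number (86.7%), the percentile was 94.3% and 90.2% in the highest 50% and 25% of peaks, 84.4% without X, 92.8% and 90% with 60 and 110 kb windows, and 82.6% over windows with at least 5 peaks. For median width (97.9%) it was 81.9% and 52.7% in the highest 50% and 25% of peaks, so among the highest 25% the region was near the middle in width. It was 87.2% after merging within 1000 bp, 91.0% and 94.5% with 60 and 110 kb windows, 96.9% on the shifted grid, 99.2% on 2L alone and 98.97% over windows with at least 5 peaks. For median score (85.1%) it was 39.3% and 19.4% in the highest 50% and 25%, 79.2% after merging, 88.1% without X, 75.1% with 60 kb windows, 87.5% over windows with at least 5 peaks and 90.8% over windows with 19 to 23 peaks. For the share of length in peaks (90.8%) the values were 93.5% and 85.9% in the highest 50% and 25%, 92.9% on 2L, 93.0% and 92.7% with 60 and 110 kb windows, 88.0% over windows with at least 5 peaks and 80.8% over those with 19 to 23. For the summed width of top 10% peaks (56.7%) they were 74.7% after merging, since the highest peak then takes in its neighbours, 63.2% on 2L, 66.9% and 48.9% with 60 and 110 kb windows, 44.8% over windows with at least 5 peaks and 23.1% over those with 19 to 23, an alternative chosen after seeing the data. The share of members in the top 25% was 33.3%. Gene ends within 1000 bp of a peak were 35.7% in the region and 28.5% on 2L. The rank of al among limb genes, 11, was 3 within 25 kb, 2 within 10 kb (tied with dac, ex and odd) and 6 for the highest 50% of peaks. By bases covered by peaks it was 13.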
